A study of Homo sapiens with 12 samples.

Results

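The 10 genes described here are the core pluripotency and LIN28 genes POU5F1, SOX2, NANOG, LIN28A, LIN28B, DPPA2, DPPA4, SALL4, UTF1 and L1TD1. They were listed by gene name, with earlier results of these data known, and all 10 were found among the 27130 genes of the deposited count table. Poly(A) RNA was sequenced from 12 libraries of H1 (WA01), a widely used human embryonic stem cell line, to ask how the zinc finger transcription factor ZNF263 takes part in the control of pluripotency. Each of 4 groups had 3 libraries. The groups were wild type H1 cells, H1 cells with a homozygous ZNF263 knockout, homozygous ZNF263 knockout cells that also overexpressed ZIC2, and H1 cells that overexpressed ZNF263. ZIC2 is another zinc finger transcription factor. Wild type and knockout libraries carry the tag vec in their names. All libraries of both knockout groups share a further tag that no other library carries. The meaning of the tags, the kind of edit, the number of knockout clones and the vectors are not given in the sources used here. Both knockout groups may come from a single line. The effect of the knockout and a difference between lines then cannot be told apart. Nothing in them says whether replicates were separate cultures, so the p-values measure only the spread between these libraries, which may be technical.

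In human embryonic stem cells, POU5F1 (OCT4), SOX2 and NANOG are DNA-binding factors that occupy many enhancers together, their own included, and hold the cells in the pluripotent state. LIN28A and LIN28B are RNA-binding proteins with a cold shock domain and a pair of CCHC zinc knuckles. They bind precursors of the let-7 microRNAs and block their maturation, while mature let-7 represses LIN28 and many growth genes. DPPA2 and DPPA4 are chromatin proteins of the early embryo that act as a pair, SALL4 is a zinc finger repressor that recruits the NuRD deacetylase complex, UTF1 is a chromatin protein of undifferentiated cells, and L1TD1 is an RNA-binding protein descended from a LINE-1 element that associates with LIN28 in these cells.

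The libraries held 17175183 to 21804410 counts each, except knockout replicate 1 with 43464609. The 10 genes took 0.555 to 0.576% of the counts in wild type and knockout libraries, 0.554 to 0.568% under ZNF263 overexpression, and 0.516 to 0.533% in knockout cells with ZIC2. ZNF263 counts were 0.793 of wild type in the knockout and 6.11-fold higher under its overexpression, while ZIC2 fell by 25.1% in the knockout (adjusted p = 3.39e-07, edgeR) and, when overexpressed there, stood 13.1-fold above knockout cells and 9.79-fold above wild type. Counts over the whole ZNF263 gene do not show whether the remaining transcript encodes a protein. The cell type label was checked on 5 embryonic stem cell markers outside the 10 genes, ZFP42, TDGF1, PODXL, DNMT3B and ZSCAN10. All 5 were above 1 CPM (the usual library-scaled count, here with TMM factors) in every group, and they summed to 4369 to 4491 CPM in wild type 4588 to 4855 CPM in the knockout, 4545 to 4738 CPM with ZIC2 and 4730.3 to 4795 CPM under ZNF263 overexpression. Of 8 mesoderm markers at least 6 were under 1 CPM in every group, as were 5 of 7 neuroectoderm, 4 of 6 endoderm, at least 4 of 6 trophoblast and 4 of 7 fibroblast markers. ELF5 had no count in any group, HAND1, FOXF1 and SOX17 had none in wild type, EMX2 and LUM none with ZIC2, NEUROG2 and LUM none under ZNF263 overexpression, and DCN none in either group without the knockout. Summed endoderm markers ran from 6.24 to 6.99 CPM in wild type, 8.58 to 10.1 CPM in the knockout, 9.14 to 10.1 CPM with ZIC2 and 4.21 to 5.35 CPM under ZNF263 overexpression. Summed fibroblast markers ran from 484 to 498 CPM in wild type, 532 to 575 CPM in the knockout, 609 to 660.2 CPM with ZIC2 and 488 to 501 CPM under ZNF263 overexpression. Summed trophoblast markers ran from 5.14 to 5.44 CPM in wild type, 5.66 to 7.23 CPM in the knockout, 7.09 to 8.41 CPM with ZIC2 and 7.43 to 7.85 CPM under ZNF263 overexpression. Summed mesoderm markers ran from 2.83 to 3.14, 3.45 to 4.22, 3.65 to 5.35 and 2.45 to 3.9 CPM in the same order of groups, and summed neuroectoderm markers from 8.26 to 10.1, 7.65 to 8.92, 7.01 to 8.67 and 9.16 to 10.4 CPM. The part of these marker differences in the results below was not tested. In bulk RNA, fewer cells of a type and less RNA per cell cannot be told apart.

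All 10 genes passed the filter on low counts, and their levels in wild type spanned more than 2 orders of magnitude. Levels of different genes were compared per length, as FPKM from TMM-scaled CPM and the exon length of each gene. LIN28A stood highest in wild type, at 537 ± 11.6 FPKM (SD, n = 3), followed by L1TD1 at 379.8 ± 2.92 and DPPA4 at 338 ± 4.92 FPKM (SD, n = 3). SOX2 followed at 151 ± 4.12 FPKM (SD, n = 3). SALL4 at 44.6 ± 1.48 and LIN28B at 44.4 ± 1.49 FPKM (SD, n = 3) overlapped between libraries and were not ordered. NANOG came next at 38.1 ± 1.14 FPKM and POU5F1 at 22.7 ± 1.18 FPKM (SD, n = 3). UTF1 at 4.99 ± 0.751 FPKM and DPPA2 at 3.33 ± 0.501 FPKM (SD, n = 3) were lowest, and their wild type libraries held only 92 to 121 and 66 to 104 counts. Apart from SALL4 and LIN28B, neighbours in this order did not overlap in wild type. The place of POU5F1 in it is uncertain, for the reasons given below. In knockout cells NANOG, at 40.8 ± 1.95 FPKM, stood above LIN28B, at 36.3 ± 2.11 FPKM (SD, n = 3).

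The level of POU5F1 is uncertain. Its deposited entry spans chromosome 6 (31132114 to 31138470, hg19, minus strand) and other sequences, 7 in all, so the FPKM value uses the exon length of the chromosome 6 copy alone. Of the 50-base windows of its longest annotated transcript, 39.4% also occur in another gene, against 16.9% for NANOG and at most 5.8% for the other 8 genes. That share leaves out copies of POU5F1 itself on the other sequences. Its deposited length is 19454 bases, against 2768 on chromosome 6. Reads from shared windows, or from copies that are alike, are lost or split when only unique alignments are counted. The POU5F1 level given here may therefore be too low. Exons of the 10 genes did not overlap those of another gene of the deposited table. SOX2 lies on chromosome 3 (181429712 to 181432223), NANOG on chromosome 12 (7941992 to 7948657), LIN28A on chromosome 1 (26737259 to 26756219), LIN28B on chromosome 6 (105404923 to 105531207), SALL4 on chromosome 20 (50399256 to 50419062), UTF1 on chromosome 10 (135043778 to 135045062) and L1TD1 on chromosome 1 (62660474 to 62678001), all in hg19. DPPA2 (109012635 to 109035364) and DPPA4 (109044988 to 109056419) are neighbours on the minus strand of chromosome 3, 9623 bases apart.

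**Figure D1:**
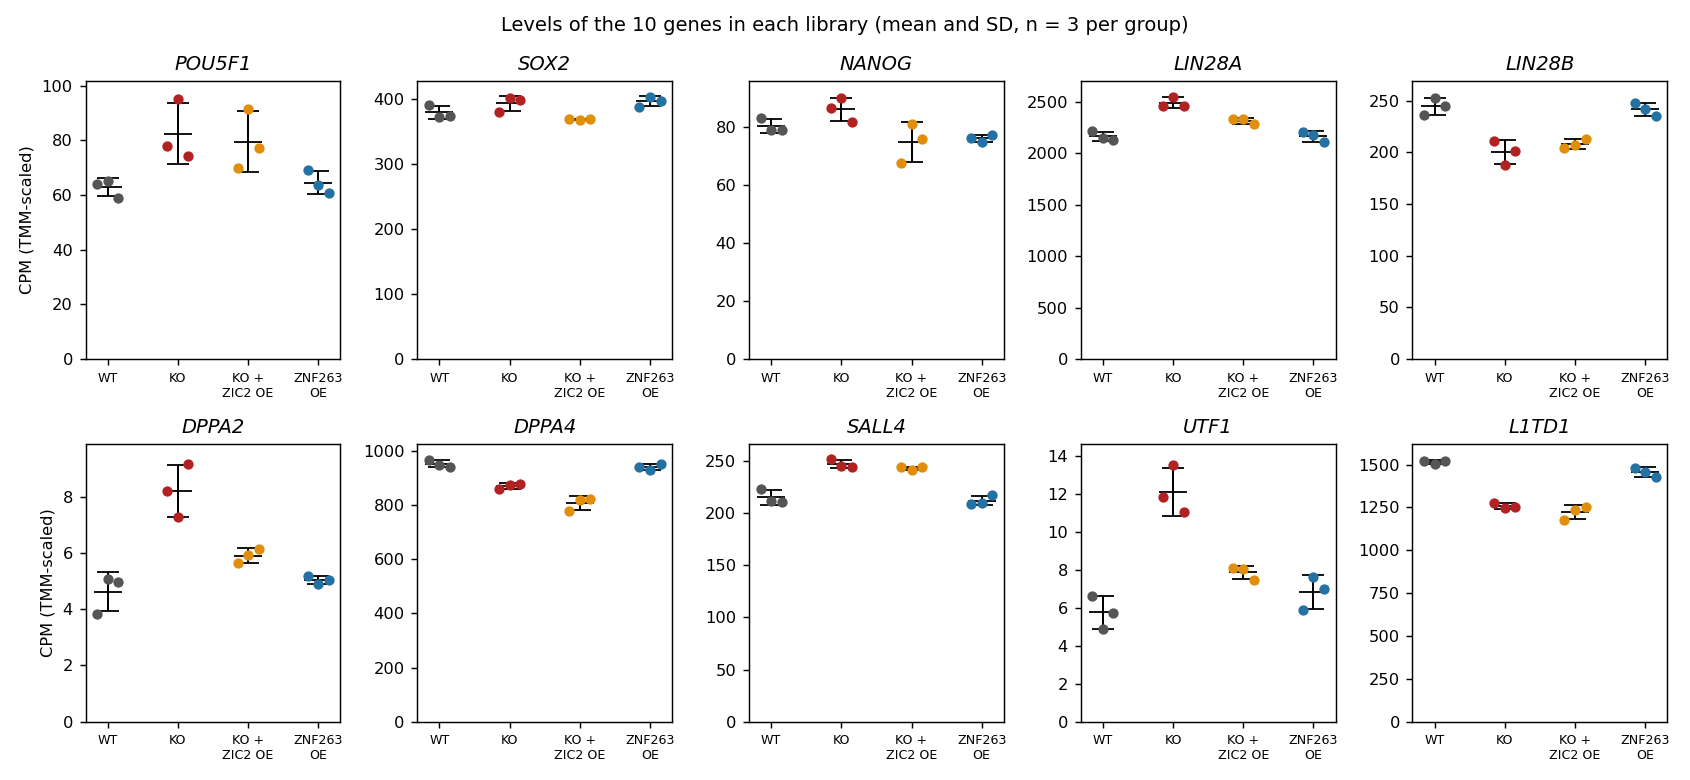
Level of each of the 10 genes in every library, in TMM-scaled CPM (linear axes from 0), by group; points are libraries, bars the mean and SD (n = 3). The knockout libraries lie above all wild type libraries for POU5F1, LIN28A, DPPA2, SALL4 and UTF1, and below them for LIN28B, DPPA4 and L1TD1.

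In ZNF263 knockout cells, 5 of the 10 genes rose and 3 fell against wild type, while SOX2 and NANOG did not pass the test. UTF1 rose 2.1-fold and DPPA2 1.77-fold, and the other changes were between a fall by 18.2% and a rise of 30.7%. The 8 genes called, 8 of 10, stand beside 38.6% of the 15437 genes tested over the whole table (edgeR quasi-likelihood test, Benjamini-Hochberg adjusted p under 0.05), with 20% of all genes tested higher and 18.5% lower. The 10 genes had a median log2 fold change of 0.15 and a median absolute one of 0.23, against -0.01 and 0.17 over all genes tested. Wild type and knockout libraries did not overlap for the same 8 genes, beside 46.7% of all genes tested.

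Of the core factors, POU5F1, whose counts are uncertain as given above, stood at 64.2, 65.2 and 59.1 CPM in wild type and at 78.0, 95.1 and 74.3 CPM in knockout libraries. The groups did not overlap, and knockout replicate 2 was the highest. The log2 fold change was 0.39 (SE 0.08, adjusted p = 0.000782), and 0.28 when knockout replicate 2 was left out. SOX2, the HMG-box partner of POU5F1, stood at 392, 374 and 375 CPM in wild type and 381, 402 and 399.6 CPM in the knockout. These libraries overlapped, and the log2 fold change of 0.05 (95% interval -0.02 to 0.12, adjusted p = 0.25) did not pass. NANOG, the homeodomain factor, stood at 82.9, 78.8 and 78.7 CPM in wild type and 86.3, 89.8 and 81.6 CPM in the knockout. It overlapped as well, with a log2 fold change of 0.10 (95% interval -0.01 to 0.21, adjusted p = 0.141).

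The LIN28 paralogs went in opposite directions. LIN28A rose from 2214, 2145 and 2125 CPM in wild type to 2460.3, 2549 and 2457 CPM in the knockout (log2 fold change 0.20, SE 0.03, adjusted p = 1.46e-05). LIN28B fell from 236, 253 and 245 CPM to 211, 188 and 201 CPM (log2 fold change -0.29, SE 0.04, adjusted p = 1.01e-05). In both cases every knockout library lay outside the wild type range. The fall of LIN28B was smaller after correction for GC content and length, at -0.13 (adjusted p = 0.000785), and the rise of LIN28A stayed at 0.20.

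The neighbouring genes DPPA2 and DPPA4 also moved apart. DPPA2, the scarcer of the pair, rose from 3.81, 5.07 and 4.95 CPM in wild type to 8.2, 7.27 and 9.14 CPM (log2 fold change 0.83, SE 0.11, adjusted p = 6.38e-06). DPPA4 fell from 968, 948 and 941 CPM to 858, 874 and 878 CPM, so it fell by 8.63% (log2 fold change -0.13, SE 0.03, adjusted p = 0.00235). The groups overlapped for neither gene.

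Among the chromatin and RNA-binding genes, UTF1 had the largest rise of the 10, from 6.64, 4.91 and 5.76 CPM in wild type to 11.8, 13.5 and 11.1 CPM. Its lowest knockout library was above its highest wild type library, and the log2 fold change was 1.07 (SE 0.11, adjusted p = 1.22e-07). SALL4 rose from 223, 211 and 211 CPM to 252, 245 and 244 CPM (log2 fold change 0.20, SE 0.04, adjusted p = 0.000107). L1TD1, the LIN28-associated RNA-binding protein, fell from 1521, 1502 and 1523 CPM to 1279, 1246 and 1255 CPM. Its log2 fold change was -0.27 (SE 0.03, adjusted p = 7.19e-07), and -0.16 (adjusted p = 2.33e-06) after correction for GC content and length. All 8 calls held when any 1 wild type or knockout library was left out.

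**Figure D2:**
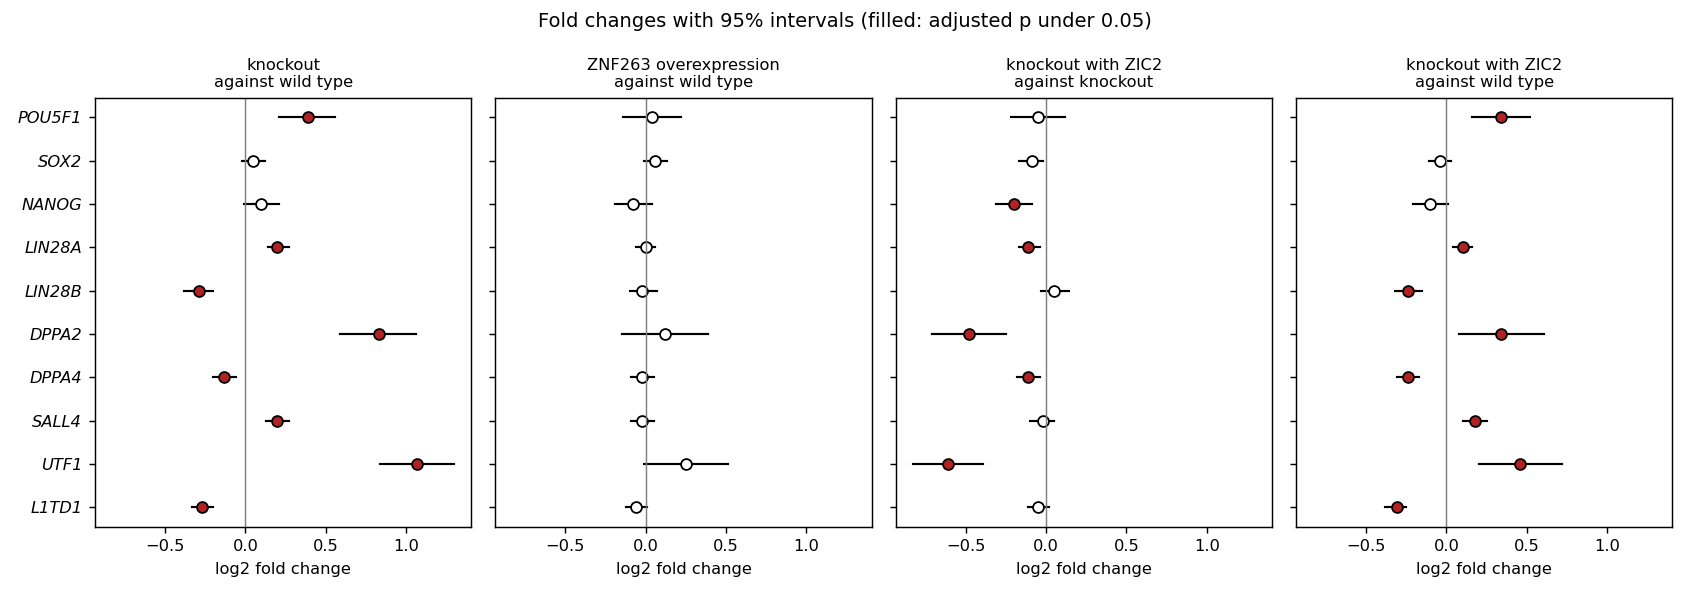
Log2 fold change of each of the 10 genes (x axis) in the 4 comparisons, with 95% intervals from the edgeR fit over all genes; filled points have an adjusted p under 0.05. In the knockout UTF1 (1.07) and DPPA2 (0.83) lie farthest to the right and LIN28B (-0.29) farthest to the left, and under ZNF263 overexpression no point is filled.

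GC content of the transcript moved with the knockout effect. Among the 10 genes the log2 fold change was higher where the longest transcript was richer in GC, from LIN28B (38.1% GC, log2 fold change -0.29) and L1TD1 (40.5%, -0.27) to UTF1 (76.8%, 1.07), with Pearson 0.79 and Spearman 0.73 over these 10 genes. The genes share libraries and their number is small, so this is a description. Over the 14708 genes tested with a known GC content the Spearman correlation was 0.42. After correction for GC content and length in each library, UTF1 stood at a log2 fold change of 0.79 (adjusted p = 2.21e-07), DPPA2 at 0.76 and POU5F1 at 0.36, and the same 8 genes were called as without it. DPPA2, with 46.5% GC, lay above NANOG (44.7%), LIN28A (48.5%) and DPPA4 (44.4%), the genes closest to it in GC content, whether or not the correction was made. The part of GC content in its rise was not tested.

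**Figure D3:**
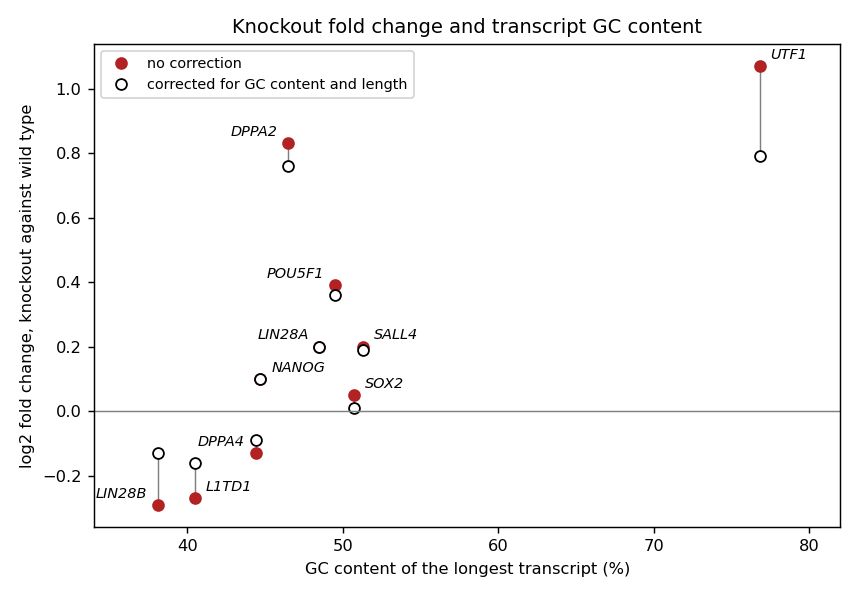
Log2 fold change in knockout against wild type (y axis) by GC content of the longest transcript in percent (x axis) for the 10 genes; filled points are uncorrected and open points corrected for GC content and length, joined by a line per gene. The correction moved UTF1 from 1.07 to 0.79 and LIN28B from -0.29 to -0.13, and moved DPPA2 from 0.83 to 0.76.

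The upstream sequence is shown for the 2 genes with the largest rises (UTF1 and DPPA2), the 2 with the largest falls (LIN28B, at both of its annotated starts, and L1TD1), DPPA4 as the neighbour of DPPA2 that fell and, for comparison, for NANOG, which did not pass the test and carries the joint POU5F1 and SOX2 element. The RefSeq promoter table (GRCh38.p14) matched 7 of the 10 genes, and POU5F1, LIN28A and SALL4 were not matched. Each window below is the 250 bases before the annotated start, 5′ to 3′ on the strand of the gene. Capitals mark 4 motifs searched on both strands, the ZNF263 core GGAGGA, the ZIC motif CAGCAGG, the POU5F1 octamer core TTTGCAT and the SOX motif ACAATG. No match overlaps another.
UTF1 (chr10:133229967-133230216, plus strand): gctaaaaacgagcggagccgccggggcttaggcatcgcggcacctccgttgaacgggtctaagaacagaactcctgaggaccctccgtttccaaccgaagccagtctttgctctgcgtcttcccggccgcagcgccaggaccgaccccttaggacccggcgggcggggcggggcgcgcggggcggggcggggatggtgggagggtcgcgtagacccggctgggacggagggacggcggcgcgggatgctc
DPPA2 (chr3:109316518-109316767, minus strand): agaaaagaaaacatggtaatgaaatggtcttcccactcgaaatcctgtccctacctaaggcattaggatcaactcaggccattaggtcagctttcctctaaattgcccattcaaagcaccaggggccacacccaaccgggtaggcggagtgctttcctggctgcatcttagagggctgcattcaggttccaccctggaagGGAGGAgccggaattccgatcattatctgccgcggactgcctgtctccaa
DPPA4 (chr3:109337547-109337796, minus strand): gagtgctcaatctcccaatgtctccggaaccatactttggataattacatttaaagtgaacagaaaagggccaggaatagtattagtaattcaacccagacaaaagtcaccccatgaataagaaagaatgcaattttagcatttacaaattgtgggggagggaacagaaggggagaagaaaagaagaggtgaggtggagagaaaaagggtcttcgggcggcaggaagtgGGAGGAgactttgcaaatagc
LIN28B start 1 (chr6:104940715-104940964, plus strand): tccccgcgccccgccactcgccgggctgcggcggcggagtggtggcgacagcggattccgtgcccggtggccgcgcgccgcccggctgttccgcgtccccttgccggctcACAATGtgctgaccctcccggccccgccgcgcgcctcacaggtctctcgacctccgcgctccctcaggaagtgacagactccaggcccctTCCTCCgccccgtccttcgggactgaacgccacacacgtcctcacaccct
LIN28B start 2 (chr6:104956857-104957106, plus strand): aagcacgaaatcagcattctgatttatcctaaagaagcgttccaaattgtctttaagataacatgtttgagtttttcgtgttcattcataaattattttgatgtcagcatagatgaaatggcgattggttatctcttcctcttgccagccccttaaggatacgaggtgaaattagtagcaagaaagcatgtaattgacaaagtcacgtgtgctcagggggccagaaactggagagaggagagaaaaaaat
L1TD1 (chr1:62194599-62194848, plus strand): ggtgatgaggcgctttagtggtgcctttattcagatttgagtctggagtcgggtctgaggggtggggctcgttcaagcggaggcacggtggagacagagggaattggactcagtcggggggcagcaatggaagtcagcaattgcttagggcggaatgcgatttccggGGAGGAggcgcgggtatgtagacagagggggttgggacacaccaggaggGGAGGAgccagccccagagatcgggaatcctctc
NANOG (chr12:7789152-7789401, plus strand): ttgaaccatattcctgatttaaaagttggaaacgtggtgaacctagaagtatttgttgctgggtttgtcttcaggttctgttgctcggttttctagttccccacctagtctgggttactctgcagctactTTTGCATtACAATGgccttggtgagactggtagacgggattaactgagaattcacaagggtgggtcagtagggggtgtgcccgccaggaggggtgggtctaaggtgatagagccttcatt

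GGAGGA is common, present in 35.7% of the 27305 genes with such a window. It stood once in the windows of DPPA2, which rose in the knockout, and DPPA4, which fell, 50 and 21 bases before the start. LIN28B, which fell, held it once, on the reverse strand 50 bases before start 1, and not before start 2. L1TD1, which fell, held it 2 times, and SOX2, which did not pass the test, held it 3 times. The UTF1 window, 70.8% GC, held none of the 4 motifs, which says only that these letters are not in this stretch. In NANOG the octamer core and the SOX motif stood 1 base apart. The octamer core occurs in 4.84% and the SOX motif in 11.2% of these 27305 genes. The octamer core was also found in the SOX2 window, on the reverse strand, and the SOX motif also before LIN28B start 1. CAGCAGG, in 10.2% of the 27305 genes, was found in none of the 7 genes. A match here is a description and not a measured binding site.

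LIN28B was far scarcer than LIN28A in all groups, and its ratio to LIN28A lay below the wild type range in every library of both knockout groups. Per length, LIN28B stood at 7.8, 8.61 and 8.43% of LIN28A in the wild type libraries (8.28 ± 0.424%, SD, n = 3) and at 6.27, 5.38 and 5.98% in the knockout (5.88 ± 0.45%, SD, n = 3). With ZIC2 it was 6.39, 6.51 and 6.81% (6.57 ± 0.214%, SD, n = 3), and under ZNF263 overexpression 8.23, 8.12 and 8.16% (8.17 ± 0.0568%, SD, n = 3). The ranges of the knockout and wild type libraries did not overlap, and the log2 difference was -0.50. In a two-sided exact permutation test its p was 0.1, the smallest that 3 against 3 libraries allow, or 0.133 adjusted over the 4 comparisons. The same p was found for knockout with ZIC2 against wild type (log2 difference -0.33) and against knockout (0.16), and p = 0.7 for ZNF263 overexpression (-0.02), all by the exact test. The difference of the log2 fold changes of LIN28B and LIN28A after correction for GC content and length, an alternative chosen after seeing the data, was -0.33 in the knockout and -0.15 in knockout with ZIC2, both against wild type. DPPA2 per DPPA4, given without a test, stood at 0.988 ± 0.16% in wild type, 1.92 ± 0.214% in the knockout, 1.49 ± 0.0311% with ZIC2 and 1.09 ± 0.0277% under ZNF263 overexpression (SD, n = 3).

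**Figure D4:**
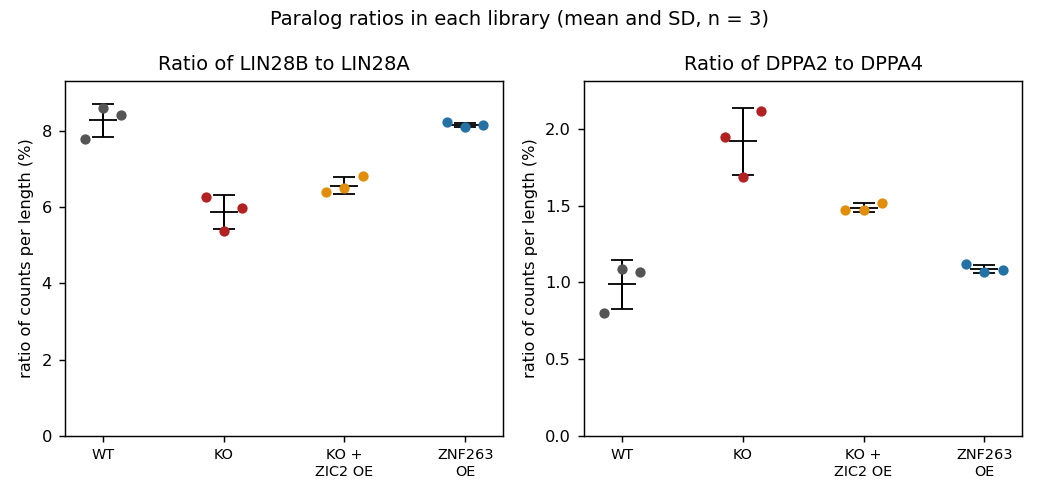
Ratio of LIN28B to LIN28A and of DPPA2 to DPPA4 in each library, in percent of counts per length (linear axes from 0); points are libraries, bars the mean and SD (n = 3). The LIN28B ratio is 5.38 to 6.27% in the knockout and 7.8 to 8.61% in wild type, and the DPPA2 ratio is 1.69 to 2.12% and 0.802 to 1.09%.

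The let-7 sequences show what the LIN28 proteins act on. RefSeq lists 9 mature family members with the same seed (bases 2 to 8, in capitals), of which let-7a is printed. LIN28 proteins are known to bind the letters GGAG in the loop side of the hairpin. These letters follow the mature 5′ arm in 9 of the 11 let-7 hairpins, as in MIRLET7G (GGAG in capitals), and are absent there in 2, of which MIRLET7A3 is printed. The members themselves carry let-7 seed matches. Among the longest annotated 3′ UTRs (GENCODE v29), the seed match CTACCTC (in capitals) occurred once in LIN28A, 4 times in LIN28B, once in SALL4 and in none of the other 7 genes, against 9.58% of 19115 genes with at least 1. No other annotated transcript of the 10 genes held more. The LIN28A match and a pair of those in LIN28B are printed.
let-7a-5p: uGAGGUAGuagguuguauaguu
MIRLET7G hairpin: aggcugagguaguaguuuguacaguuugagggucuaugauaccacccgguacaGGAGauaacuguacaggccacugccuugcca
MIRLET7A3 hairpin: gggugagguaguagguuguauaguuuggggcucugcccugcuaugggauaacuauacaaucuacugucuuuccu
LIN28A match: gcacagcctattgaaCTACCTCa
LIN28B match at base 44 of the UTR: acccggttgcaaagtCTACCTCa
LIN28B match at base 2653 of the UTR: gtttacagcaaaaggCTACCTCa

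LIN28A (1 match) and SALL4 (1 match) rose in the knockout and LIN28B (4 matches) fell. Of the members without a match, POU5F1, DPPA2 and UTF1 rose, DPPA4 and L1TD1 fell, and SOX2 and NANOG did not pass. Mature microRNAs are not captured in poly(A) libraries and were not measured. Of 24 genes of the LIN28 and let-7 pathway other than the members (processing enzymes, uridylating enzymes and let-7 targets), 23 were tested. In the knockout 6 rose and 9 fell, with a median log2 fold change of -0.08, beside 38.6% called and a median of -0.01 over all genes tested. The correction for GC content and length was made for 21 of the 23, of which 13 were called without it and 8 with it. The cell cycle gene CCND1 rose from 80.04 ± 2.13 to 114 ± 6.29 CPM (SD, n = 3), or by 0.51 on the log2 scale (SE 0.05, adjusted p = 1.25e-08). The nuclear receptor NR6A1 fell by 0.42 on the log2 scale (SE 0.04, adjusted p = 3.43e-08) and the chromatin protein HMGA2, a known let-7 target, by 0.35 (SE 0.04, adjusted p = 1.23e-07). The seed match occurred 5 times in the longest 3′ UTR of NR6A1. For HMGA2 it was absent from the longest 3′ UTR but occurred 4 times in that of another annotated transcript. CCND1, which rose, held no match in any annotated transcript. TRIM71 (6 matches, adjusted p = 0.127, edgeR) and IGF2BP1 (4 matches, adjusted p = 0.162) did not pass. A link between matches and changes was not tested. Of the 6 uridylating and processing genes of the list, named for their role after the values were seen, 3 fell. Of these, ZCCHC11 (-0.17, adjusted p = 0.0229) and ZCCHC6 (-0.21, adjusted p = 0.0237) are uridylating enzymes, which LIN28A recruits to let-7 precursors. The correction was not made for this pair, since no GC value was matched to these gene names. The other was DICER1 (-0.28, adjusted p = 0.000738, and -0.10, adjusted p = 0.0241, after correction). The microprocessor genes DROSHA (-0.03, adjusted p = 0.581) and DGCR8 (0.02, adjusted p = 0.758) and the exonuclease gene DIS3L2 (0.05, adjusted p = 0.587) did not pass.

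Of 30 other pluripotency genes, 29 were tested, of which 13 rose and 5 fell in the knockout, with a median log2 fold change of 0.13. This and the counts below stand beside 38.6% of all genes called, 20% higher and 18.5% lower, and a median of -0.01. POLR3G, an RNA polymerase III subunit of undifferentiated cells, fell from 341.5 ± 4.83 to 221 ± 1.76 CPM (SD, n = 3), with a log2 value of -0.63 (SE 0.03, adjusted p = 1.67e-12). The neuropeptide gene GAL rose by 0.70 on the log2 scale (SE 0.06, adjusted p = 2.78e-09), and USP44, a deubiquitinase, fell by 0.43 (SE 0.04, adjusted p = 1.06e-08). Of 16 paralogs of the members 13 were tested, of which 3 rose and 4 fell (median -0.01). The POU factor POU3F1 fell by 0.49 (adjusted p = 3.68e-06), and the SOX factors SOX3 (0.47, adjusted p = 8.28e-06) and SOX15 (0.80, adjusted p = 1.54e-05) rose. All 13 subunits of NuRD, the complex recruited by SALL4, were tested, and 3 rose and 3 fell (median -0.05). MBD3 (0.52, adjusted p = 1.3e-09), CHD3 (0.75, adjusted p = 7.5e-09) and GATAD2A (0.31, adjusted p = 1.07e-06) rose. DPPA2 and DPPA4 are known as activators of genes of the cleavage-stage embryo in mouse cells. Of 12 genes of the human 8-cell stage 11 were in the table, 1 was tested, and the other 10 held 0 to 31 counts over all 12 libraries. The tested gene, the cyclin CCNA1, stood at 1.53 ± 0.298 CPM in wild type and 2.17 ± 0.109 CPM in the knockout (SD, n = 3), and its log2 fold change was 0.51 (adjusted p = 0.0291). That call was lost with DESeq2 (adjusted p = 0.124), with no filter on low counts (0.0576), with only the 2 groups in the fit (0.0551), after the GC correction (0.0648), and without wild type replicate 1 or 2 or knockout replicate 1 or 2 (0.0867, 0.151, 0.102 and 0.054).

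Under ZNF263 overexpression none of the 10 genes passed the test, beside 0.764% of the 15437 genes tested. None had an unadjusted p under 0.05 either, against 1630 genes over the whole table, and DESeq2 called none. The log2 fold changes lay between -0.08 for NANOG and 0.25 for UTF1, with a median of -0.01 against 0 over all genes. UTF1 stood at 5.89, 7.65 and 6.99 CPM, overlapping wild type, and its interval ran from -0.01 to 0.51 (adjusted p = 0.508). DPPA2 stood at 5.18, 4.88 and 5.04 CPM, with an interval of -0.15 to 0.39 (adjusted p = 0.82). The intervals of these scarce genes were the widest of the 10.

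The other genes had narrower intervals under ZNF263 overexpression, and among them that of POU5F1 was the widest. LIN28A stood at 2201, 2179 and 2106 CPM, with a log2 fold change of 0.00 (95% interval -0.06 to 0.06). LIN28B stood at 248, 242 and 235 CPM (-0.02, interval -0.10 to 0.07). Both genes overlapped wild type. DPPA4 stood at 940.1, 927 and 951 CPM (-0.02, interval -0.09 to 0.05) and SALL4 at 209, 210.0 and 217 CPM (-0.02, interval -0.09 to 0.05). Both overlapped wild type. POU5F1 stood at 69.2, 63.8 and 60.7 CPM (0.04, interval -0.14 to 0.22) and SOX2 at 389, 404 and 398 CPM (0.06, interval -0.01 to 0.13), and both overlapped wild type. NANOG (76.0, 74.8 and 77.0 CPM, -0.08, interval -0.19 to 0.04) and L1TD1 (1483, 1459 and 1428 CPM, -0.06, interval -0.12 to 0.01) lay below all wild type libraries without passing the test, 2 of 10 genes whose groups did not overlap beside 19.4% of all genes. Of the related lists, only the kinase gene LCK among the other pluripotency genes was called, and it was lower (log2 fold change -0.38, SE 0.05, adjusted p = 0.000156). No tested LIN28 and let-7 gene, paralog or NuRD subunit was called. In a fit of the 2 groups alone 2 LIN28 and let-7 genes, 5 other pluripotency genes and 3 paralogs were. That fit called 431 genes over the whole table, against 118 in the fit of all 4 groups.

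When ZIC2 was overexpressed in knockout cells, 5 of the 10 genes fell against knockout cells and none rose, beside 8.34% of all genes called, 4.99% higher and 3.35% lower. After the GC correction 875 genes were higher and 1458 lower, against 771 and 517 without it. UTF1 and DPPA2, the genes with the largest rise in the knockout, had the largest falls. UTF1 stood at 8.11, 8.06 and 7.50 CPM with ZIC2, below every knockout library (log2 fold change -0.61, SE 0.11, adjusted p = 0.000357). DPPA2 stood at 5.62, 5.91 and 6.15 CPM, also below every knockout library (-0.48, SE 0.11, adjusted p = 0.0056). The knockout libraries serve in this comparison and in that of knockout with wild type, so the opposite signs are given side by side and not as a result. Both calls held in all alternatives and with any 1 library of the 2 groups left out.

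The other falls with ZIC2 were smaller. NANOG stood at 67.4, 80.9 and 75.9 CPM, below every knockout library, with a log2 difference of -0.20 (SE 0.05, adjusted p = 0.017). That call was lost in a fit of the 2 groups alone (adjusted p = 0.0855) and without replicate 1 of knockout with ZIC2 (-0.13, adjusted p = 0.158). LIN28A stood at 2329, 2330.3 and 2283 CPM (-0.11, SE 0.03, adjusted p = 0.0298) and DPPA4 at 778, 820.1 and 822 CPM (-0.11, SE 0.03, adjusted p = 0.0322). Both lay below every knockout library. Both calls were lost with upper quartile scaling (adjusted p = 0.0731 and 0.0723) and in the fit of 2 groups (0.189 and 0.199). Leaving out 1 library ended the LIN28A call without knockout replicate 2 (0.0583) or any replicate of knockout with ZIC2 (0.0535, 0.0573 and 0.105), and the DPPA4 call without knockout replicate 3 (0.107) or replicate 1 of knockout with ZIC2 (0.154).

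The remaining 5 genes did not pass in that comparison. SOX2, at 369.5, 368 and 370.4 CPM, lay below every knockout library (-0.09, adjusted p = 0.107), and passed after the GC correction (-0.12, adjusted p = 0.00231) and without knockout replicate 1 (-0.12, adjusted p = 0.0374). POU5F1 stood at 69.9, 91.6 and 77.1 CPM (-0.05, 95% interval -0.22 to 0.12) and LIN28B at 204, 207 and 213 CPM (0.05, interval -0.03 to 0.14). Both overlapped the knockout libraries. SALL4 at 244, 242 and 244 CPM (-0.02, interval -0.10 to 0.05) lay just below the knockout range, and L1TD1 at 1176, 1235 and 1253 CPM (-0.05, interval -0.11 to 0.02) overlapped it. In all, 7 of the 10 genes did not overlap between these groups, beside 21.8% of all genes. The median log2 fold change of the 10 genes was -0.10, against 0 over all genes.

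Against wild type, knockout cells with ZIC2 still differed in 8 of the 10 genes, 5 higher and 3 lower, beside 37.6% of all genes, 20.3% higher and 17.3% lower. The median log2 fold change of the 10 was 0.03 and the median absolute one 0.24, against 0 and 0.17 over all genes. The 5 higher genes were POU5F1 (0.34, SE 0.09, adjusted p = 0.00307), LIN28A (0.10, adjusted p = 0.0125), DPPA2 (0.34, SE 0.13, adjusted p = 0.0391), SALL4 (0.18, adjusted p = 0.000421) and UTF1 (0.46, SE 0.13, adjusted p = 0.00608). The 3 lower genes were L1TD1 (-0.31, SE 0.03, adjusted p = 8.32e-08), DPPA4 (-0.24, SE 0.03, adjusted p = 4.12e-06) and LIN28B (-0.24, SE 0.04, adjusted p = 0.000129). SOX2 (-0.04, adjusted p = 0.373) and NANOG (-0.10, adjusted p = 0.152) did not pass. SOX2 passed after the GC correction (-0.10, adjusted p = 0.00391), which also brought LIN28B to -0.09 (adjusted p = 0.0244) and SALL4 to 0.11 (adjusted p = 0.00475). With it 3 genes were higher and 4 lower. Libraries did not overlap for 9 of the 10 genes, the 8 called and SOX2, beside 47.3% of all genes.

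Several of the rises against wild type were close to the threshold. The DPPA2 call was lost with DESeq2 (adjusted p = 0.113), with no filter on low counts (0.0577), after the GC correction (0.113), without wild type replicate 1 (0.22, adjusted p = 0.205) and without replicate 1, 2 or 3 of knockout with ZIC2 (0.0577, 0.0806 and 0.102). The LIN28A call was lost after the GC correction (0.06, adjusted p = 0.0707) and without wild type replicate 2 (0.0867) or 3 (0.106). The UTF1 call was lost without wild type replicate 2 (0.35, adjusted p = 0.0535), and NANOG passed without replicate 2 of knockout with ZIC2 (-0.16, adjusted p = 0.0295).

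In the related lists, 3 of the 23 tested LIN28 and let-7 genes rose and 1 fell in knockout cells with ZIC2 against knockout cells. These and the other counts for that comparison stand beside 8.34% of all genes called. CCND1, already higher in the knockout, rose further (0.35, adjusted p = 5.82e-06), and NR6A1 rose (0.19, adjusted p = 0.00281). Of the 29 other pluripotency genes 1 rose and 5 fell. POLR3G rose (0.34, adjusted p = 1.86e-07) and GAL fell (-0.40, adjusted p = 2.44e-05). Of the 13 paralogs 1 fell, SOX4 (-0.16, adjusted p = 0.00312), and no NuRD subunit was called. Against wild type, 5 rose and 9 fell among the LIN28 and let-7 genes, 9 and 6 among the other pluripotency genes, 2 and 3 among the paralogs and 3 and 3 among NuRD subunits, beside 37.6% of all genes called. In that comparison CCND1 stood at 0.86 (adjusted p = 2.6e-12), HMGA1, a chromatin protein, at 0.25 (adjusted p = 9.83e-07), USP44 at -0.53 (adjusted p = 4.98e-10) and TRIM28, a corepressor, at 0.36 (adjusted p = 1.33e-08). SOX15 stood at 0.94 (adjusted p = 3.1e-06), SOX3 at 0.40 (adjusted p = 9.66e-05), CHD3 at 0.91 (adjusted p = 4.98e-10), MBD3 at 0.47 (adjusted p = 8.45e-09) and CCNA1 at 0.88 (adjusted p = 0.000587).

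The genes whose profile over the 12 libraries was most like that of each member were named by Pearson correlation of log2 CPM among 10752 genes, as a description, since the libraries of a group share their condition. UTF1 was followed most closely by NT5DC2 (0.971), MAZ (0.97) and GAL (0.964), and DPPA2 by MAN1C1 (0.96), SLC4A2 (0.95) and NOTCH3 (0.945). For LIN28A these were GID8 (0.984), SLC7A3 (0.983) and FZD7 (0.975), and for LIN28B DDX3X (0.991), PCM1 (0.987) and CAND1 (0.986). For DPPA4 they were ZNF232 (0.99), ZIC5 (0.987) and MMD (0.979), and for L1TD1 NAA50 (0.989), DEK (0.989) and NFE2L3 (0.988). SALL4 was followed by LIMCH1 (0.979), TPCN2 (0.975) and CPZ (0.973), POU5F1 by SSR4 (0.939), NTMT1 (0.933) and COASY (0.93), and NANOG by JAZF1 (0.951), CBR1 (0.93) and MAPK13 (0.918). SOX2 had the lowest values, with CASP9 (0.892), AKIRIN1 (0.89) and GPR27 (0.876).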

How the data were processed

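RNA-seq of poly(A) RNA gave 12 libraries, 3 in each of 4 groups taken from the sample titles. The authors deposited raw counts per gene, 1 column per library, with the summed exon length of each gene as another column. Only unique alignments were counted, per the file headers, and per the submitters' processing notes STAR, featureCounts, DESeq2 and hg19 were used, with no versions or settings given in the sources used here. Genes with near-identical copies lose reads by this rule. The library kit in the labels' protocols does not mark the strand, so sense and antisense reads could not be told apart.

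Genes were kept by filterByExpr (15437 of 27130), scaled by TMM factors, and tested in R 4.3.3 with edgeR 4.0.16 (quasi-likelihood F test), in 1 fit of all 12 libraries on group alone (8 residual degrees of freedom, common biological coefficient of variation 0.04). P-values were adjusted over all genes tested (Benjamini-Hochberg). Called means an adjusted p under 0.05. SEs and 95% intervals come from this fit. The procedure was run on simulated counts, drawn with the same spread for all genes and no GC trend. That run does not bear on the GC trend of these data, and its outcome is not used here. GC content, from the longest GENCODE v29 transcript of each symbol, was known for 95.3% of tested genes, and the correction used natural splines with 5 degrees of freedom. The LIN28B to LIN28A ratio was compared by a two-sided exact permutation test over libraries.

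The 10 genes, the related gene lists and the tests were chosen with earlier results of these data known. All 10 genes are named, and from each list the 3 genes with the smallest adjusted p in knockout against wild type and up to 2 called in each other comparison. The most similar genes were sought among those with a mean of at least 5 CPM. Alternatives were DESeq2 size factors, upper quartile factors, the DESeq2 1.42.0 test, no filter on low counts, only the 2 groups compared, a replicate block, correction for GC content and length, and each library left out. The GC correction of the LIN28B to LIN28A ratio was added after seeing the data. Protein sequences were not used here.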

Additional observations from a re-analysis of the deposited data

How the results depend on the processing

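In knockout against wild type the same direction and call held for each of the 10 genes in all alternatives, and 8 were called in each. The deviations of same-numbered libraries correlated by -0.11 to 0.112, and those of differently numbered ones by -0.102 to 0.147. Such low values over all genes showed no pairing by number but cannot exclude it. With a replicate block the number of the 10 genes called was 8 in knockout against wild type, 0 under ZNF263 overexpression, 5 in knockout with ZIC2 against knockout and 8 against wild type, as without it, and genes called over the whole table were 5845, 108, 1244 and 5691. Under ZNF263 overexpression 118 genes were called (49 higher, 69 lower), 220 with no filter on low counts (99 and 121), 431 in a fit of the 2 groups (210 and 221), 244 after the GC correction (120 and 124) and 50 to 77 with 1 library left out (17 to 28 higher, 32 to 49 lower). Related genes called there were 0 of the LIN28 and let-7 list (1 with no filter, 2 with 2 groups, 2 after the GC correction), 1 other pluripotency gene (5 with 2 groups, 3 after the GC correction) and 0 paralogs (3 with 2 groups, 1 after the GC correction). Values near 0 changed sign in that comparison. LIN28A was 0.00 with no filter and 0.00 in the fit of 2 groups, LIN28B 0.02 after the GC correction, and with 1 library left out LIN28A ran from -0.01 to 0.02, LIN28B from -0.04 to 0.01, SALL4 from -0.04 to 0.01, POU5F1 from -0.01 to 0.08 and the log2 ratio of LIN28B to LIN28A from -0.06 to 0.01.

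In knockout with ZIC2 against knockout, 1288 genes were called (517 lower), 2333 after the GC correction (1458 lower), 289 lower in the fit of 2 groups, and 842 to 1476 with 1 library left out (306 to 641 lower), the lowest without replicate 1 of knockout with ZIC2. Of the 10 genes 5 were called, all lower, 3 with upper quartile factors, 2 in the fit of 2 groups, and 2 to 6 with 1 library left out, the lowest without that same library. POU5F1 ran there from -0.16 to 0.06, above 0 without knockout replicate 2 (0.06) or replicate 1 of knockout with ZIC2 (0.04). Other pluripotency genes called were 6 (3 with 2 groups, 15 after the GC correction, 4 to 10 with 1 library left out, the highest without knockout replicate 2). Paralogs were 1 (2 with upper quartile factors, 3 after the GC correction, 1 to 3 left out, the highest without knockout replicate 2). NuRD subunits were 0 (1 with DESeq2 size factors, 1 with the DESeq2 test, 3 after the GC correction, 0 to 2 left out, the highest without knockout replicate 1 or 2). Against wild type, genes higher with ZIC2 were 3126, or 1965 after the GC correction, and of the 10 genes 5 were higher, 3 after the GC correction and 3 to 4 with 1 library left out, the lowest without wild type replicate 2. The LIN28 and let-7 genes called were 14 (9 after the GC correction) and paralogs 5 (3 to 5 left out, the lowest without replicate 2 of knockout with ZIC2). All genes called there were 5804 (4389 after the GC correction). In knockout against wild type, the LIN28 and let-7 genes called were 15 (8 after the GC correction), and the 8-cell stage gene CCNA1 was 1 (0 with the DESeq2 test, no filter, 2 groups or the GC correction, 0 to 1 left out). Genes called over the whole table in that comparison were 5951 (4477 after the GC correction). The GC correction was not made for 2 of the 23 LIN28 and let-7 genes, which were not matched to a GC value. Among the other 21 the calls without it were 13 in knockout against wild type and 13 in knockout with ZIC2 against wild type. With that correction, chosen for the ratio after seeing the data, the log2 ratio of LIN28B to LIN28A moved from -0.50 to -0.33 in knockout against wild type, from -0.33 to -0.15 in knockout with ZIC2 against wild type, and from -0.02 to 0.02 under ZNF263 overexpression. Apart from the genes without a GC value, the causes of these differences were not tested. UTF1 and DPPA2, with at most 121 counts in a wild type library, had the largest SEs of the 10 genes in each comparison (0.11 to 0.13).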
